A study of Drosophila melanogaster with 37 samples.

Results

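The nuclear genes of the mitochondrial respiratory chain were chosen by symbol: ND- for complex I, UQCR- for complex III, COX with a digit for complex IV, and ATPsyn for ATP synthase. The rule found 74 of 17660 genes in the nuclear part of the study's transcription unit annotation, and 0 transcription units (TUs) held more than 1 of them. There were 40 genes of complex I, 8 of complex III, 11 of complex IV and 15 of ATP synthase. A TU is a stranded interval of the genome (build dm6) that holds 1 gene or several.

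The study used mNET-seq, a method that reads nascent transcripts from purified RNA polymerase II, in stage 15 Drosophila melanogaster embryos. The 37 samples came from male or female embryos, under control RNAi or after maternal depletion by UAS-mof RNAi of mof, the histone acetyltransferase gene of X chromosome dosage compensation; the labels name neither the driver nor the target of the control RNAi. Total polymerase was captured in 4 female control, 4 female knockdown, 3 male control and 3 male knockdown samples, polymerase phosphorylated at serine 5 in 3, 4, 4 and 4, and at serine 2 in 2 of each, from 6000 embryos a preparation. Coverage of these samples was not analysed here, so the depth is unknown, no gene carries a transcription level, and the values below describe annotated gene structure. No promoter or protein sequence was used.

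The respiratory chain moves electrons from NADH and succinate through complexes I to IV to oxygen and pumps protons across the inner mitochondrial membrane, and ATP synthase uses the proton gradient to make ATP. Mitochondrial DNA encodes a few hydrophobic subunits, and nuclear genes encode the rest. Many subunits in Drosophila have a duplicate with an L ("like") suffix, and such duplicates are known for expression in the testis.

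Respiratory chain genes had short TUs. Their median TU length was 1145 bp (range 503 to 142276, n = 74), against 2241 bp over the 13036 nuclear TUs with a protein-coding gene (interquartile range 1207 to 5284). TUs shorter than 2000 bp made up 56 of the 74 (75.7%), against 45.4% of all TUs with a protein-coding gene. These are counts of a whole annotation, not samples of one, and carry no test. The medians by complex were 1103 bp for complex I, 1676 bp for complex III, 1100 bp for complex IV and 1226 bp for ATP synthase.

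**Figure D1:**
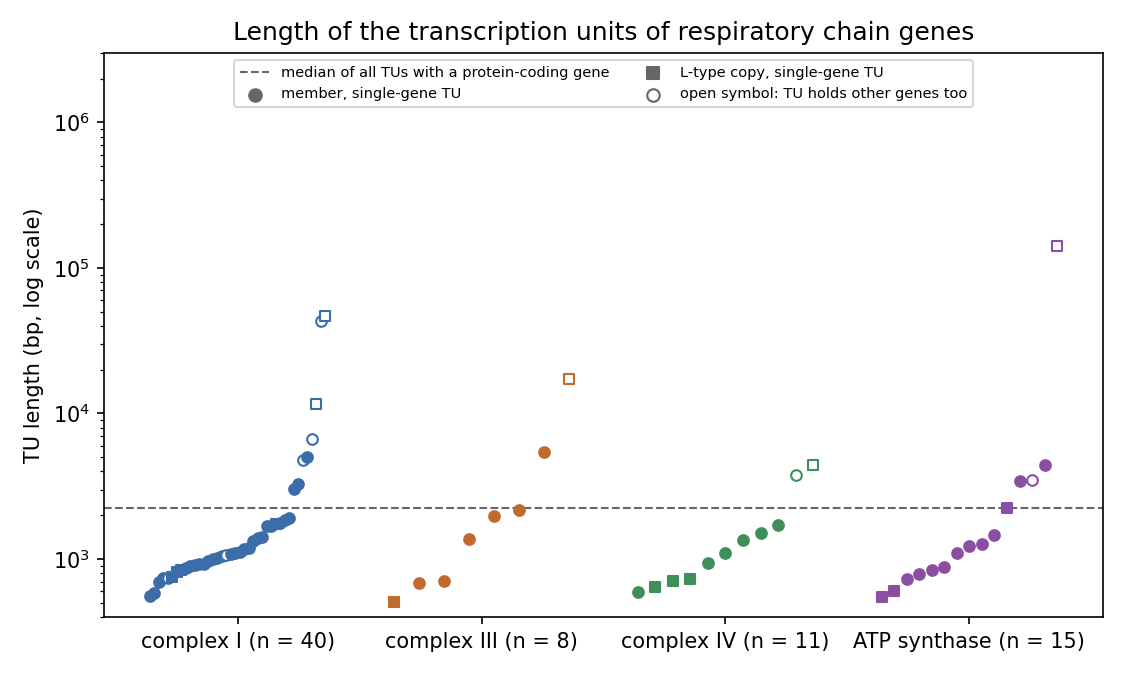
Length in bp (log axis) of each member's TU by complex, sorted within a complex. Squares are L-type copies, open symbols are TUs that hold other genes too, and the dashed line is the median of all TUs with a protein-coding gene (2241 bp). Most points lie below the line, and the longest are open.

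Complex I, the NADH dehydrogenase, has 7 core subunits in this set, those shared with the bacterial enzyme, and their TUs ran from 1070 to 3259 bp (median 1421 bp). ND-75 (3037 bp), ND-51 (1916 bp) and ND-24 (1421 bp) encode subunits of the NADH-oxidising arm, and ND-49 (3259 bp), ND-30 (1094 bp), ND-20 (1336 bp) and ND-23 (1070 bp) those of the arm that passes electrons to ubiquinone. The other 27 complex I genes that are not copies encode accessory subunits and had a median of 1042 bp, the shortest being ND-B15 (557 bp). Among them ND-15, counterpart of human NDUFS5, lay in a TU of 42941 bp at the tip of 2L (114726 to 157666, plus strand). The RefSeq span of ND-15 alone was 41305 bp. Its TU also held Gs1, CG11454, CG3436 and 3 non-coding genes, and 7 TUs lay inside it on the opposite strand.

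Among complex III genes, UQCR-C1 (2157 bp) and UQCR-C2 (1988 bp) encode the large core proteins and UQCR-14 (701 bp), UQCR-Q (1364 bp), UQCR-6.4 (689 bp) and UQCR-11 (5463 bp) small subunits. UQCR-11, whose human counterpart UQCRH is the hinge protein, was the longest single-gene TU of the set. The shortest TU of any member was that of the copy UQCR-14L, at 503 bp. Complex IV genes other than copies ran from COX8 (589 bp) to COX6B (3799 bp), which shared its TU with CG18809. For ATP synthase, the catalytic subunit gene ATPsynbeta (3434 bp) and the central stalk genes ATPsyndelta (4424 bp) and ATPsyngamma (1460 bp) were longer than the peripheral stalk genes ATPsynO (1100 bp), ATPsynB (1226 bp), ATPsynD (1272 bp) and ATPsynCF6 (845 bp). ATPsynC, which encodes the rotating membrane ring, spanned 3486 bp with RNaseP:RNA and mir-4949 inside its TU.

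The members lay on each of the large arms, with 14 on 2L, 14 on 2R, 16 on 3L and 16 on 3R. The X held 12 members (16.2%), close to its share of TUs with a protein-coding gene (15.5%). All 12 were among the 58 members that are not L-type copies (20.7% of them), and 0 copies lay there. Chromosome 4, a small and largely heterochromatic chromosome, held ATPsynbeta and ND-49, or 2.70% of members against 0.606% of TUs with a protein-coding gene. The Y held 0. By strand there were 45 members on plus and 29 on minus. The copies were 13 and 3 of these and the other members 32 and 26, and the strand share over all TUs was not computed.

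**Figure D2:**
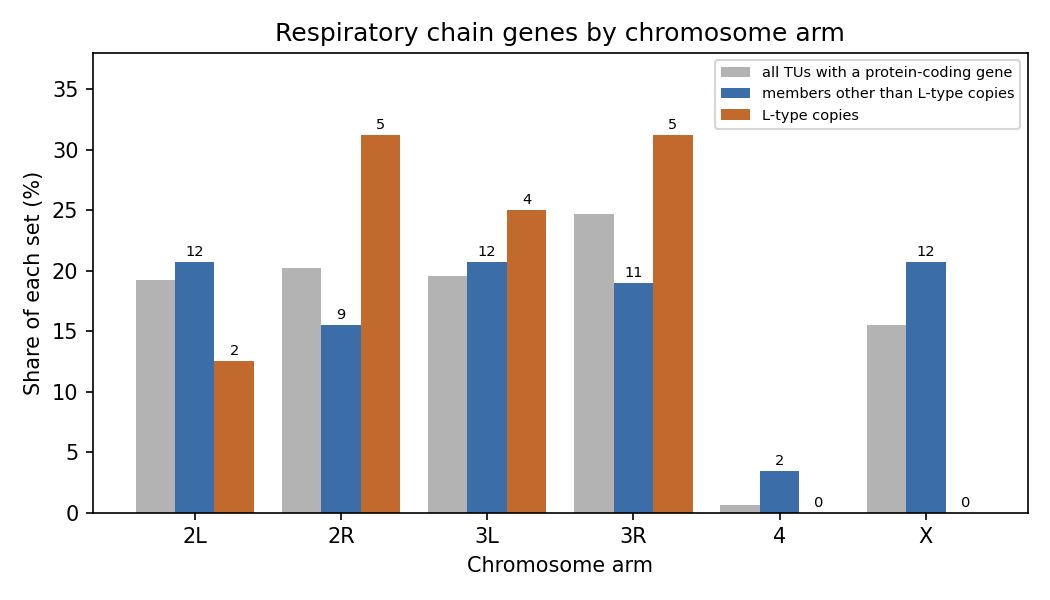
Share in percent of all TUs with a protein-coding gene, of the 58 members that are not copies and of the 16 L-type copies on each chromosome arm, with the number of genes above the bars. The X holds 12 members and 0 copies, and chromosome 4 holds 2 members and 0 copies.

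The male X is the target of the dosage compensation that mof serves. Its 12 members were 9 complex I genes and 1 of each other complex. The core subunits ND-75 (8248651 to 8251687, minus strand), ND-24 (17632089 to 17633509, plus strand) and ND-20 (15985473 to 15986808, minus strand) were among them, 3 of the 7. The accessory genes were ND-18, ND-B18, ND-B16.6, ND-B14.5A, ND-ASHI and ND-MNLL, with TUs of 746 to 1857 bp. UQCR-14 (701 bp), COX6B (3799 bp) and ATPsyndelta (4424 bp) completed the list. Their median TU was 1361 bp. ND-MNLL, the shortest complex I gene of the X, had the same interval as CG45089 (7893053 to 7893798, minus strand).

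Of the 12 X-linked members, 6 faced another start within 500 bp (50%, against 27.2% of all TUs with a protein-coding gene) and 7 were overlapped on the opposite strand (58.3%, against 39.7%). Only ND-75 and ND-20 had neither: ND-75 was 617 bp from Trxr-1, and ND-20 was 67 bp from CG8931. UQCR-14 lay wholly inside the opposite-strand TU of CG32576, and ATPsyndelta contained CG2962 (1785 bp). ND-ASHI was crossed at its 5' end by the TU of l(1)G0255 and CG4095 over 695 bp. The other overlaps on the X were at 3' ends, of ND-B16.6 with CG3847 (221 bp), ND-B18 with opm (91 bp), ND-18 with CG12204 (46 bp) and ND-B14.5A with Cyp4d14 (18 bp).

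Head-to-head neighbours were frequent among the genes chosen by symbol. A divergent start was called where a TU on the other strand began no more than 500 bp upstream of the member's TU. It was found for 33 of 74 members (44.6%), against 27.2% of all TUs with a protein-coding gene. Without the L-type copies the count was 29 of 58 (50%). Within 250 bp it was 21 of 74 (28.4%, background 14.0%). Each of the 33 partner TUs held a protein-coding gene, as did 13036 of all 15960 nuclear TUs. The distance between the facing starts had a median of 228 bp (range 20 to 415). By complex the counts were 17 of 40 for complex I, 2 of 8 for complex III, 6 of 11 for complex IV and 8 of 15 for ATP synthase.

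**Figure D3:**
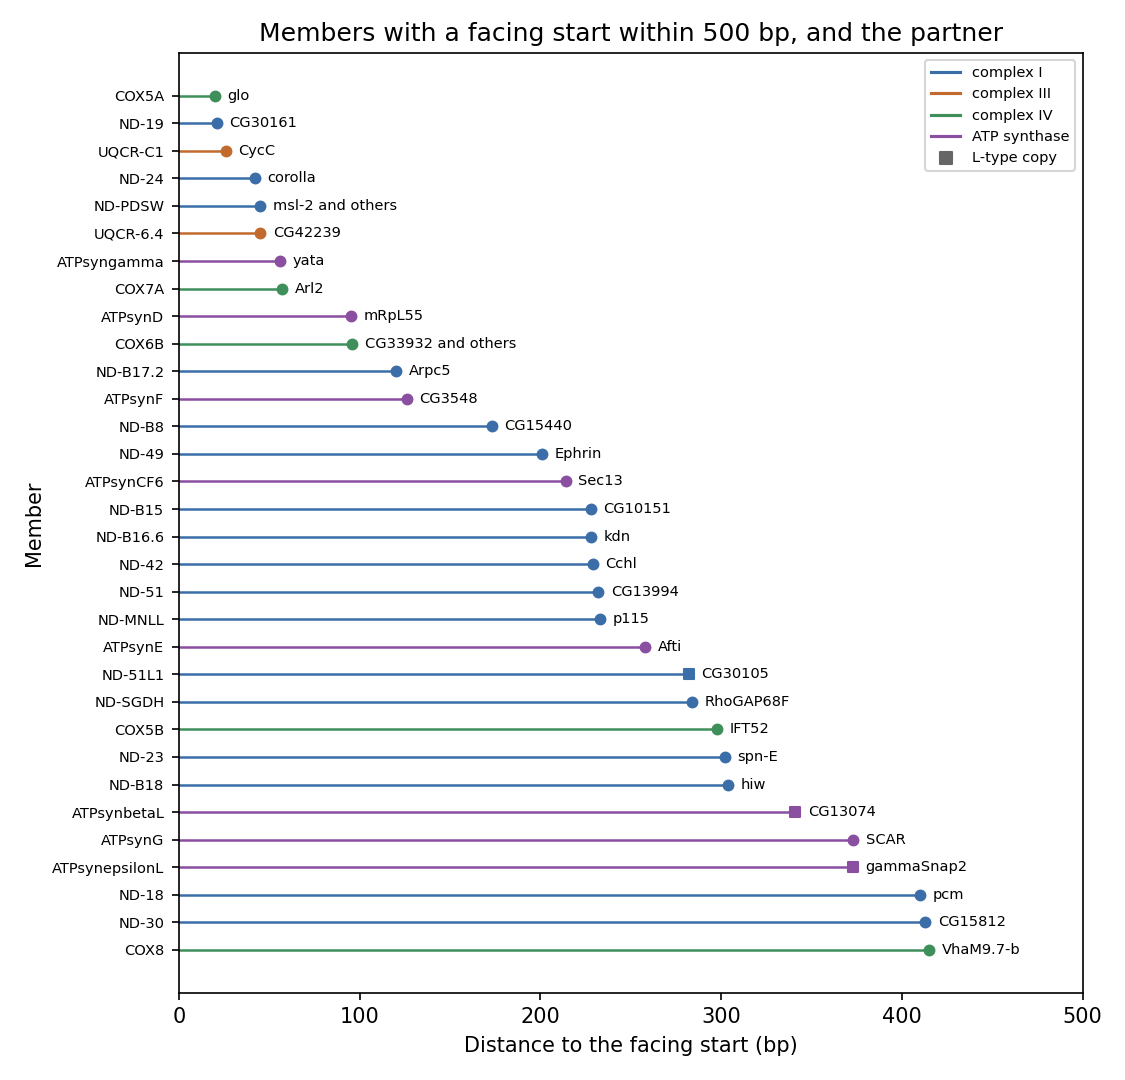
Distance in bp between the starts of members with a divergent start and those of their partners, with COX7AL not shown, the first gene of each partner TU being written beside the point. Colours give the complex and squares the L-type copies, and the point of ND-51L1 is the start of its host Smurf. COX5A and glo are the closest at 20 bp, and COX8 is the farthest at 415 bp.

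In 10 of these pairs the starts were at most 100 bp apart. COX5A (3R, 11819359 to 11820299, plus strand), an accessory subunit of cytochrome c oxidase, faced the RNA-binding protein gene glo at 20 bp. ND-19 (2R, 24664398 to 24665439, plus strand) faced CG30161 at 21 bp. UQCR-C1 (3R, 14890231 to 14892387, plus strand) faced CycC, the cyclin of the Mediator kinase module, at 26 bp. On the X, ND-24 faced the synaptonemal complex gene corolla at 42 bp, and COX6B faced CG33932 and Rpp20 at 96 bp. ATPsyngamma faced yata at 56 bp, COX7A the small GTPase gene Arl2 at 57 bp, and UQCR-6.4 faced CG42239 at 45 bp.

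ND-PDSW (2L, 3466157 to 3467334, plus strand), an accessory subunit of the membrane arm of complex I, was separated by 45 bp from the start of msl-2, the male-specific subunit gene of the dosage compensation complex. The TU of ND-PDSW was 1178 bp long and that of msl-2 was 3895 bp. Pif1 was the nearest TU, at 7 bp.

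Some partners also act in mitochondria. ATPsynD faced mRpL55, a mitochondrial ribosomal protein gene, at 95 bp. ND-42 faced Cchl, the cytochrome c haem lyase gene, at 229 bp, and ND-B16.6 on the X faced kdn, the citrate synthase gene, at 228 bp. Among all 33 pairs, 1 partner was a mitochondrial ribosomal protein gene, 0 were cytoplasmic ribosomal protein genes and 0 were other members. Those sets hold 73, 92 and 74 of the 17660 genes in nuclear TUs, so no pattern is read from these counts. The share of mitochondrial genes among the facing partners of all TUs was not computed. Cchl and kdn were picked out after the list of partners was seen.

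Other facing pairs within 250 bp were ND-B17.2 with the Arp2/3 subunit gene Arpc5 (120 bp), ATPsynF with CG3548 (126 bp), ND-B8 with CG15440 (173 bp), ND-49 with Ephrin (201 bp), ATPsynCF6 with the coat protein gene Sec13 (214 bp), ND-B15 with CG10151 (228 bp), ND-51 with CG13994 (232 bp) and ND-MNLL with p115 (233 bp). Between 250 and 500 bp, ATPsynE faced Afti (258 bp), ND-SGDH RhoGAP68F (284 bp), COX5B the intraflagellar transport gene IFT52 (298 bp), and ND-23 the piRNA pathway helicase gene spn-E (302 bp). ATPsynG faced the actin regulator gene SCAR (373 bp), ND-30 faced CG15812 (413 bp) and COX8 the proton pump gene VhaM9.7-b (415 bp). On the X, ND-B18 faced the ubiquitin ligase gene hiw (304 bp) and ND-18 the exoribonuclease gene pcm (410 bp). The copies ATPsynbetaL and ATPsynepsilonL faced CG13074 (341 bp) and gammaSnap2 (373 bp). The TU that holds ND-51L1 is counted too, but its start, 282 bp from that of CG30105, is the start of the host gene Smurf, and ND-51L1 itself faced no gene start. Just outside the limit were ND-13A, 589 bp from the start of Msp300, and the X-linked ATPsyndelta, 596 bp from that of CG15309. Core subunits of complex I faced another start in 5 of 7 cases (71.4%, background 27.2%), the exceptions being ND-75 and ND-20. ND-75 had a facing start, that of CG1632, at 983 bp. The accessory genes that are not copies did so within 500 bp in 11 of 27 cases (40.7%). This difference rests on few genes and was not tested.

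In 5 members the opposite-strand neighbour crossed the start without covering the whole member. These were ND-39 with ZnT77C (2840 bp shared), ND-ASHI (695 bp), ND-MWFE with TppII (476 bp), ATPsynbeta on chromosome 4 with CG11076 (274 bp) and COX7C with oys and CG34220 (267 bp). None of the 5 also had a divergent start. The share was 6.76% of members against 4.60% of all TUs with a protein-coding gene, and facing or crossing starts together made up 38 of 74 (51.4%, background 31.5%). These shares do not count a TU lying wholly inside an opposite-strand TU as crossed, although its start is covered too. Such members numbered 4: UQCR-14, ND-49L, ND-B14.5AL and COX5BL.

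Opposite-strand overlap of any kind was found for 33 members (44.6%), near the background of 39.7%. The 33 include 5 copies counted through their host TUs, and by RefSeq gene spans the count was 29. Overlap of TUs was mostly short and at the 3' end: 19 members were overlapped there alone, by 4 to 334 bp with a median of 66 bp. UQCR-C2 with Syx8 and ATPsynF with CG13587 shared 4 bp, ATPsynO with CG14864 7 bp and ND-B12 with the mRNA export gene Rae1 8 bp. The longest of these in a single-gene TU were ND-B22 with CG31855 and UQCR-6.4 with POSH, at 227 bp each. The same form was found for ND-13A, ND-18, ND-19, ND-51, ND-B8, ND-B14, ND-B14.5A, ND-B15, ND-B16.6, ND-B18, ND-SGDH and, through their hosts, ND-51L2 and COX6AL.

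A divergent start or an overlap was present in 55 of 74 members (74.3%, background 55.9%), and 19 had neither. The 55 include 5 copies counted only through their host TUs: ND-51L1, ND-51L2, UQCR-11L, COX6AL and ATPsynCF6L. By its own RefSeq span, none of these copies had a facing start or an opposite-strand overlap. These 19 were ND-13B, ND-20, ND-20L, ND-24L, ND-75, ND-ACP, ND-AGGG, ND-B14.5B, ND-B14.7, ND-B17, ND-MLRQ, UQCR-11, UQCR-14L, UQCR-Q, COX4, COX4L, ATPsynB, ATPsynC and ATPsynGL. Many of them were still close to a same-strand or convergent neighbour, such as COX4 at 3 bp from CG34051 and ATPsynB at 13 bp from CG6749. The nearest TU was more than 1000 bp away for 7 members, a limit set after the gaps were seen (background 10.5%). The most distant was ND-AGGG, 48543 bp from CG40472 on 3L (24976254 to 24977118, plus strand), at 89.2% of the arm as measured to the end of its last TU. UQCR-11 (4762 bp, at 89.7%) and ND-MLRQ (1127 bp, at 83.3%) lay toward the same, centromeric end of 3L, and the other 4 were the copies ND-20L (11919 bp), ATPsynGL (2435 bp), ND-24L (2029 bp) and COX4L (1871 bp).

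**Figure D4:**
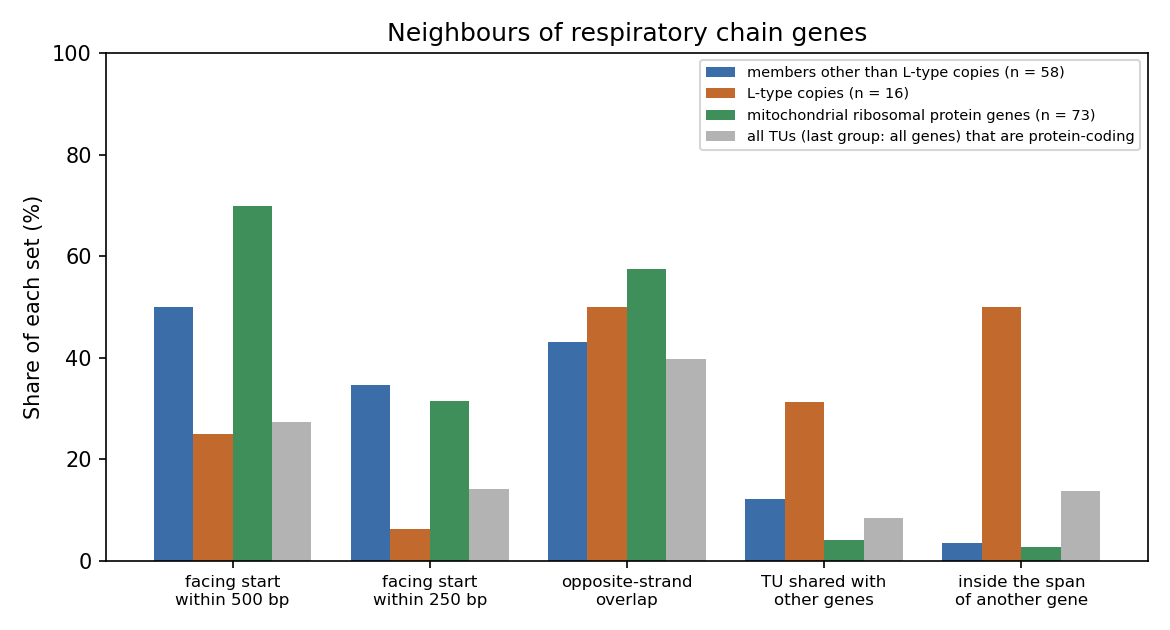
Share in percent of 58 members that are not copies, 16 L-type copies, 73 mitochondrial ribosomal protein genes and all protein-coding TUs (genes for the last group of bars) with each kind of neighbour. Outside the last group of bars, the background counts each TU once while the other sets count genes. Facing starts are present in 50% of the 58 members and 25.0% of the copies, and 3.45% and 50% lie inside another gene.

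TUs shared with another gene numbered 12 (16.2%, background 8.35%), and in 9 of these the other genes included a protein-coding one (background 5.01%). These backgrounds count each of the 13036 TUs once, however many of the 13863 protein-coding genes it holds. A background counted by gene, as the members are, would be higher and was not computed, so no excess is read from these shares. Of the 7 that are not copies, ND-23 (mir-4911), ND-MLRQ (mir-4942) and ATPsynC held small or non-coding RNA genes. ND-MWFE shared a TU of 4819 bp with the receptor kinase gene Nrk, and ND-MNLL, COX6B and ND-15 completed the group. ND-MLRQ is counted here by its symbol, although its human counterpart NDUFA4 is now placed in complex IV. The other 5 were L-type copies, each on the strand of a much longer host.

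There were 16 L-type copies of 15 parent genes. ND-51 had a pair, ND-51L1 and ND-51L2, and the parents of COX6AL and ATPsynepsilonL were levy and sun, found through RefSeq synonyms. Measured as RefSeq gene spans, 15 of 16 copies were shorter than their parents, with medians of 716.5 bp for copies and 1353 bp for parents. The exception was ND-51L1, at 2143 bp against 1916 bp. The smallest ratio was that of UQCR-11L (443 bp) to UQCR-11 (5463 bp), 0.0811, and the next those of ATPsynepsilonL to sun (0.391) and COX5BL to COX5B (0.466). In complex I, ND-20L spanned 811 bp against 1336 bp for ND-20, ND-24L 843 against 1421 bp, ND-49L 1750 against 3259 bp, ND-51L2 1566 against 1916 bp, and ND-B14.5AL 758 against 907 bp. In complexes III and IV, UQCR-14L spanned 503 bp against 701 bp, COX4L 730 against 1353 bp, COX6AL 540 against 744 bp for levy, and COX7AL 642 against 1100 bp. In ATP synthase, ATPsynCF6L spanned 690 bp against 845 bp, ATPsynGL 600 against 878 bp and ATPsynbetaL 2255 against 3434 bp. The ratio of copy to parent was highest, after ND-51L1, for ND-B14.5AL at 0.836. A single RefSeq transcript was listed for 11 of 16 copies (background 49.4% of protein-coding genes), 1 of 15 parents and 10 of the 58 members that are not copies.

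**Figure D5:**
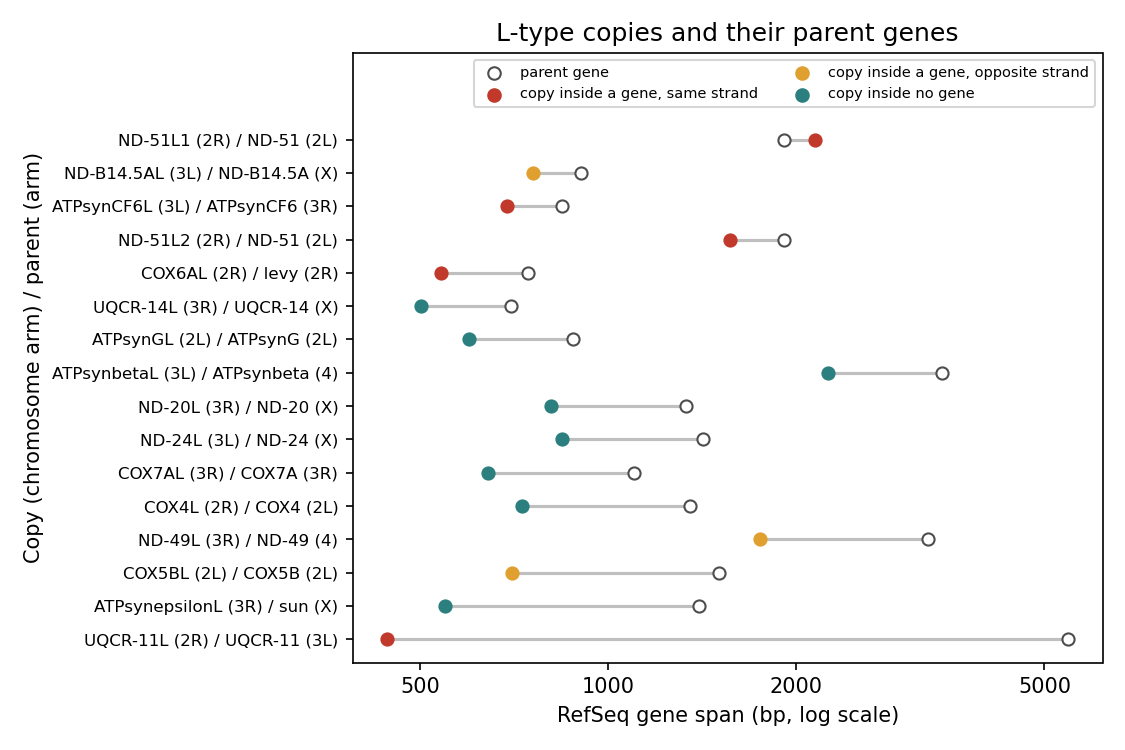
RefSeq gene span in bp (log axis) of each L-type copy (filled) and its parent (open), with their chromosome arms in parentheses, ordered by the ratio of copy to parent. Colour gives whether the copy lies inside another gene. ND-51L1, the top row, is the single copy longer than its parent.

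No copy lay on the X or on chromosome 4, which held 15.5% and 0.606% of TUs with a protein-coding gene. With 16 copies, a count of 0 says little for the X and nothing for chromosome 4. There were 5 copies with a parent on the X and 2 with a parent on chromosome 4. The X-linked parents were ND-20, ND-24, ND-B14.5A, UQCR-14 and sun, with copies on 3R, 3L, 3L, 3R and 3R. The parents on chromosome 4 were ND-49 and ATPsynbeta, with copies on 3R and 3L. In all, 12 of 16 copies lay on another arm than the parent. No arm held more than 24.7% of TUs with a protein-coding gene, so most pairs of unrelated genes also lie on different arms. Of the 4 on the same arm, COX5BL followed COX5B on the same strand of 2L at 122 bp, and COX7AL lay 2625 bp from COX7A on 3R in the opposite direction. These 2 pairs were the closest of any members, and the third and last pair within 50000 bp was ND-51L1 with UQCR-6.4 (20006 bp).

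Copies often lay within other genes. The RefSeq span of 8 of 16 copies was inside the span of another gene (50%), against 2 of the 58 other members (3.45%) and 13.7% of all protein-coding genes. The 2 others were UQCR-14, inside CG32576, and ND-MNLL, whose interval equals that of CG45089. Among the 15 parents, UQCR-14 was the single case.

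On the same strand 5 copies were hosted (background 5.96%). ATPsynCF6L (690 bp, 3L) lay within the cell adhesion gene Con, in a TU of 142276 bp, the longest of the set. ND-51L2 (1566 bp, 2R) lay within the cation channel gene Trpm (46561 bp), UQCR-11L (443 bp, 2R) within the acyl-CoA synthetase gene Acsl (17210 bp), ND-51L1 within the ubiquitin ligase gene Smurf (11671 bp) and COX6AL (540 bp, 2R) within the cytochrome P450 gene Cyp4aa1 (4403 bp). Each was merged into the TU of its host, so a value per TU holds at least both genes. The TU of ATPsynCF6L also held CG17030, CG32232 and CR43884, that of ND-51L2 held CR44241, and that of COX6AL held mir-4919. The TU start of the 5 copies is that of the host.

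On the opposite strand 3 copies were hosted, in TUs of their own (background 8.13%). ND-49L (1750 bp, 3R, 25358285 to 25360034) lay within the furin protease gene Fur1, ND-B14.5AL (758 bp, 3L, 22606369 to 22607126) within CG14459, and COX5BL (703 bp, 2L, 6559431 to 6560133) within CG9596, which RefSeq names Trmt6. The other 8 copies lay inside no gene: ND-20L, ND-24L, UQCR-14L, COX4L, COX7AL, ATPsynGL, ATPsynbetaL and ATPsynepsilonL.

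By RefSeq gene starts, a facing start within 500 bp was found for 3 of 16 copies, 8 of 15 parents and 28 of the 58 members that are not copies (background 26.7%). The copies included ATPsynbetaL and ATPsynepsilonL. For ND-24, ND-49, ND-51, COX5B, levy, ATPsynCF6 and ATPsynG the parent faced a neighbour and the copy did not.

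Genes of the chain with other kinds of names, 16 in all, fell outside the symbol rule. Their median TU was 1639.5 bp (range 397 to 88228), 3 had a divergent start (18.8%, background 27.2%) and 8 were overlapped on the opposite strand (50%, background 39.7%). Their divergent share was thus below the background, unlike that of the 74 genes chosen by symbol (44.6%), and the difference was not tested. It rests on few genes and on the 500 bp limit. SdhA (529 bp) and cype (544 bp) fell just outside it, and blw (810 bp), SdhBL (810 bp) and Cyt-c1 (819 bp) had a facing start within 1000 bp. At 1000 bp the genes chosen by symbol rose to 37 of 74. Complex II, which has no member by symbol, is encoded by SdhA (2R, 4109 bp), SdhB (2R, 1547 bp), SdhC (3R, 963 bp) and SdhD (3R, 1118 bp), of which SdhC faced Tctp at 398 bp. SdhAL (RefSeq span 2148 bp) was hosted on the same strand by CG44837 in a TU of 88228 bp, while SdhBL (2136 bp) lay on the X, 809 bp from CG7358, the arm where no copy of the symbol rule was found. The ATP synthase alpha subunit gene blw (2R, 3082 bp) had neither a divergent start nor an overlap. The complex III gene ox (397 bp) faced Dgkepsilon at 17 bp, and levy (744 bp) faced wmd at 88 bp.

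The gene sets nearest in kind are the ribosomal protein genes, given for scale and with no test. The 73 mitochondrial ribosomal protein genes had a median TU of 910 bp and a divergent start in 51 cases (69.9%), of which 23 were within 250 bp (31.5%). The 92 cytoplasmic ones had a median of 1325.5 bp and a divergent start in 37 cases (40.2%), 17 within 250 bp (18.5%). Respiratory chain genes with the copies included, at 44.6% and 28.4%, lay between them. The 58 members that are not copies, at 50% and 34.5%, lay between them at 500 bp and above both at 250 bp.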

How the data were processed

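The deposited annotation gives the positions of 15991 TUs (rtracklayer 1.48.0, GFF version 2, per the file headers), 31 of them mitochondrial and left out here. How genes were merged into TUs is not stated in the labels or headers. The submitters' processing notes list build dm6 with STAR 2.7.4a, cutadapt 2.8, DESeq2, DESeq and SAMtools 1.20. Coordinates are 1-based. Genes were matched by symbol or unique synonym to RefSeq genes on that assembly, which found 74 of 74 members. In all 62 single-gene member TUs the RefSeq span equalled the TU. Strand came from the TUs. Starts are annotated, not measured in these embryos.

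Computation used Python 3.11.15, numpy 2.4.6 and matplotlib 3.10.9, and neighbour searches were tested on simulated intervals. Named are members with a facing start within 250 bp, sharing a TU, on the X, L-type copies with parents, and the longest and shortest of each complex. Others are named for completeness. Members and lists were chosen with earlier results of these data known. Promoter motifs and protein identities were not analysed here, and 1 facing pair counted in the totals is not reported here.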

Additional observations from a re-analysis of the deposited data

How the results depend on the processing

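Of 17 alternative values, 15 stayed within 1.5 times the value given. At 250 bp in place of 500 bp, members with a divergent start numbered 21 in place of 33, and at 1000 bp 37. With an overlap of at least 50% of the shorter TU, 10 members were overlapped in place of 33, since most overlaps are short. By RefSeq gene spans, 29 members were overlapped. RefSeq gene starts gave 31 members with a facing start. ND-51L1 dropped out because its TU start is that of Smurf, and COX5A because the RefSeq span of glo crosses its start. The median length ran from 1091.5 bp in single-gene TUs to 1249 bp with the other chain genes added. Copies shorter than their parents numbered 11 by TU length and 15 by RefSeq span. The RefSeq-based alternatives, single-gene pairs, later names and the X without copies were added after seeing the data. Coding lengths and motif alternatives were not run. No paired analysis was possible because no result comes from a test of samples.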

Other observations

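RefSeq now names 6 further nuclear genes by the same symbol pattern that the annotation lists under CG numbers: COX7AL2, COX6CL, COX7CL, UQCR-6.4L, COX7B and COX6AL2. They were looked up after the members were described. Their TUs ran from 527 to 5891 bp (median 680 bp), with 2 on 2L, 1 on 2R and 3 on 3L, so 0 lay on the X. UQCR-6.4L (CG43206, 551 bp) lay inside Mipp1 on the opposite strand. COX7CL (CG44296, 527 bp) lay at 10050348 to 10050874 on 2R, plus strand, just after COX7C, which ends at 10050066 on the same strand. COX7B (CG7630, 806 bp), which is no copy by name, faced Sec3 at 260 bp, and COX6AL2 (CG14077) shared a TU of 5891 bp with Ir75d.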
